A study of Mus musculus with 4 samples.

Results

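The regions described here are the distal PPARγ-bound regions that lie in later introns, meaning any intron after the first, in alveolar macrophages (AMs). Peaks of both deposited PPARγ libraries that overlapped by at least 1 bp were merged, and the 20233 merged regions that held a peak of each library were taken as consensus regions. A region was kept when its centre lay over 3 kb from every curated RefSeq transcription start site (TSS) of mm10, inside an intron of a protein-coding transcript, and in no exon and no first intron of any curated transcript. This left 3442 later-intron regions, 17.0% of the consensus (95% Wilson interval 16.5% to 17.5%). Beyond a called peak in each library, the rule used position alone.

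AMs are the resident macrophages of the lung airspace, where they clear surfactant lipid and inhaled particles. The assay was HT-ChIPmentation, a protocol where the precipitated chromatin is fragmented and tagged on the beads by a transposase, in AMs that were recovered by lavage and sorted from adult wild-type C57BL/6J mice with no treatment. There were 2 ChIP libraries made with an antibody to PPARγ and 2 input libraries, which the authors used as the control for peak calling and which were not analysed here. No source states whether the libraries came from separate animals, and there is no second condition, so the comparisons below are between classes of regions and between each summit and its own flank. Library 1 held 83787 peaks and library 2 held 28535, and read depth is not given in the peak lists. Peak lists hold no expression values, so the identity of the sorted cells could be examined only through which genes hosted regions.

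PPARγ is a nuclear receptor that is activated by fatty acids and their derivatives and binds DNA as a heterodimer with a retinoid X receptor (RXR). The preferred element is a direct repeat of the nuclear receptor half-site AGGTCA with 1 base between the repeats, called DR1. In AMs, PPARγ is required for the identity of the cells and for their lipid handling. In macrophages many of its sites lie away from promoters, at enhancers that are opened by PU.1, C/EBP, AP-1 and RUNX factors. Introns are long, so an intronic enhancer can act on its host gene or on a neighbour, and position alone does not tell which.

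The sequences below are those of 6 of the best-ranked later-intron regions, shown because they ranked high in both libraries. Regions were ranked by the lower of their percentiles of fold enrichment in the 2 libraries among all consensus regions. The Zfp608 region, with 22.2- and 15.4-fold in libraries 1 and 2, was left out. It stood at place 58, above those of Lpp, Cdk6, Prag1 and Slco2b1, and had a PU.1 match within 100 bp of its summit. The highest folds of the class, 26.95 in library 1 and 18.75 in library 2, were in regions other than the 6 shown. Each sequence is the 201 bases around the library 1 summit on the plus strand of mm10, read from the RefSeq assembly GRCm38.p6. Capitals mark matches, on either strand, to the motifs PU.1 (GAGGAAGT), C/EBP (TTGCNNAA), AP-1 (TGANTCA), RUNX (TGTGGTT), the half-site AGGTCA, and DR1 (AGGTCANAGGTCA) with up to 1 mismatch.
Sgms1, chr19:32224031-32224231: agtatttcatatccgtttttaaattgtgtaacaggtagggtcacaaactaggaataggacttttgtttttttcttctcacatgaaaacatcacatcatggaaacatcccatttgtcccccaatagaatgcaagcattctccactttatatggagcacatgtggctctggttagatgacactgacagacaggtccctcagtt
Arhgef3, chr14:27378408-27378608: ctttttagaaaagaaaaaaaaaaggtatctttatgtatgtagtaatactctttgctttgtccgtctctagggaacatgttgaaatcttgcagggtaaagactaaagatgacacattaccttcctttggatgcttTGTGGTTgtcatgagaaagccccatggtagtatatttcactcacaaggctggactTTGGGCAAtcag
Lpp, chr16:24517267-24517467: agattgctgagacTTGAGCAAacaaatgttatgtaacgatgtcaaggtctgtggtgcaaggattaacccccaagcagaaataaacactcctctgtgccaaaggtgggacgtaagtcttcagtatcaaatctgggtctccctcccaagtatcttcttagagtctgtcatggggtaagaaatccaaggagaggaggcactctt
Cdk6, chr5:3491928-3492128: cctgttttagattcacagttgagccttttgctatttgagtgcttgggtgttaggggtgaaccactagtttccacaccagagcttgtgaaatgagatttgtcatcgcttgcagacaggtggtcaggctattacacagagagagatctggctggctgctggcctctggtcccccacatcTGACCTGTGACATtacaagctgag
Prag1, chr8:36122872-36123072: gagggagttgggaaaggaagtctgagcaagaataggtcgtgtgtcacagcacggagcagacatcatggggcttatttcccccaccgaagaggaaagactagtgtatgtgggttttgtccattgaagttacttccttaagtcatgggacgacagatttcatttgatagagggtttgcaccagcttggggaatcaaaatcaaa
Slco2b1, chr7:99680863-99681063: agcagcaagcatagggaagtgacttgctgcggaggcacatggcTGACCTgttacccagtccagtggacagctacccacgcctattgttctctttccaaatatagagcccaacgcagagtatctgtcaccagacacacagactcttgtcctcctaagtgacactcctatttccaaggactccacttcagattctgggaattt
Neither Sgms1 nor Prag1 held a match to these 6 motifs within 100 bp of the summit. The Cdk6 window held a DR1 on the minus strand, 83 bp from the summit, and the Slco2b1 window held a half-site. Arhgef3 carried a RUNX and a C/EBP match, and Lpp a C/EBP match. A match is a string of letters, and no match says only that these letters are not in this window.

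The next sequences come from genes that were listed whatever their values, each the best-ranked region of its gene with a PU.1 match or a DR1 of up to 1 mismatch near the summit. They are shown because they carry the motifs that the comparison of summits with flanks turns on.
Runx1, chr16:92612450-92612650: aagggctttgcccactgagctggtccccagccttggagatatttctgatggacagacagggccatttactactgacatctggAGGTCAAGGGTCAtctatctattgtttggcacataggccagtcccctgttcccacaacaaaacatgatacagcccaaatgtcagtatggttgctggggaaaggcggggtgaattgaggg
Tcf7l2, chr19:55774969-55775169: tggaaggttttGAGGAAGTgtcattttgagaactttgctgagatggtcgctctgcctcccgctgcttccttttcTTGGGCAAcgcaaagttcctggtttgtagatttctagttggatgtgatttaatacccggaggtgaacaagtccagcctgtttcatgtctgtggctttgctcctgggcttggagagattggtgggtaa
Abcg1, chr17:31110380-31110580: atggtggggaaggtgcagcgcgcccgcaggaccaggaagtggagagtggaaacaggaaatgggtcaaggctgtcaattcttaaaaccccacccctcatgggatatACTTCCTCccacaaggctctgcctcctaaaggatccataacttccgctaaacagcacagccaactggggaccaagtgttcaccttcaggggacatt
Mrc1, chr2:14252131-14252331: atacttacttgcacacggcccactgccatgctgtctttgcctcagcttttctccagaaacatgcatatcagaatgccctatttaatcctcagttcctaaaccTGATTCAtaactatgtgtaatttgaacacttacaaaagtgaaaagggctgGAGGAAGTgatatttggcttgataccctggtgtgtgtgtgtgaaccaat
These regions were weaker than the 6 above, and that of Mrc1, with 2.61-fold in library 1 and 3.40-fold in library 2, was at place 19905 of 20233. The Runx1 window, in an intron of a gene for a haematopoietic transcription factor, held a DR1 on the plus strand 12 bp from the summit. The Abcg1 window, in a gene for a cholesterol efflux transporter, held a PU.1 match 8 bp from the summit. In Tcf7l2, which encodes a nuclear effector of Wnt signalling, a PU.1 and a C/EBP match lay in the same window, and in Mrc1, the mannose receptor gene, a PU.1 and an AP-1 match did.

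Later-intron regions were of ordinary strength. The fold enrichment given here is the highest value, over input, among a library's peaks in the region. Its median over the 3442 regions was 6.52 in library 1 (quartiles 4.74 and 9.18) and 5.35 in library 2 (quartiles 4.52 and 6.59). Distal regions in first introns, 2972 in all, had medians of 6.52 and 5.35 in libraries 1 and 2. The 4231 intergenic regions centred 3 to 50 kb from a TSS had 6.81 and 5.35, as had all consensus regions. The fold values fall on discrete steps, and whether this is why medians coincide was not tested. With 2 libraries a paired exact test cannot give a p below 0.5, so no test was made of these differences. The median width was 629 bp for later introns, against 620.5 bp for first introns, 655 bp for intergenic regions and 626 bp for all.

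Among the best-ranked 10% of all consensus regions were 317 later-intron regions, 9.21% of their class (8.29% to 10.2%), against 9.52% of the first-intron class (8.52% to 10.6%) and 11.6% of the intergenic class (10.7% to 12.6%). The best later-intron region stood at place 31 of 20233, and 10 were within the first 100. Across later-intron regions the Spearman correlation between the libraries' fold enrichments was 0.513 (n = 3442 regions), against 0.566 across first-intron regions and 0.560 across intergenic regions. These are descriptions, since regions of 1 library share its depth and its input. The 2 libraries' summits were close in about as many regions as they were apart: 52.6% (50.9% to 54.2%) had summits within 100 bp, and the median distance was 94 bp.

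**Figure D1:**
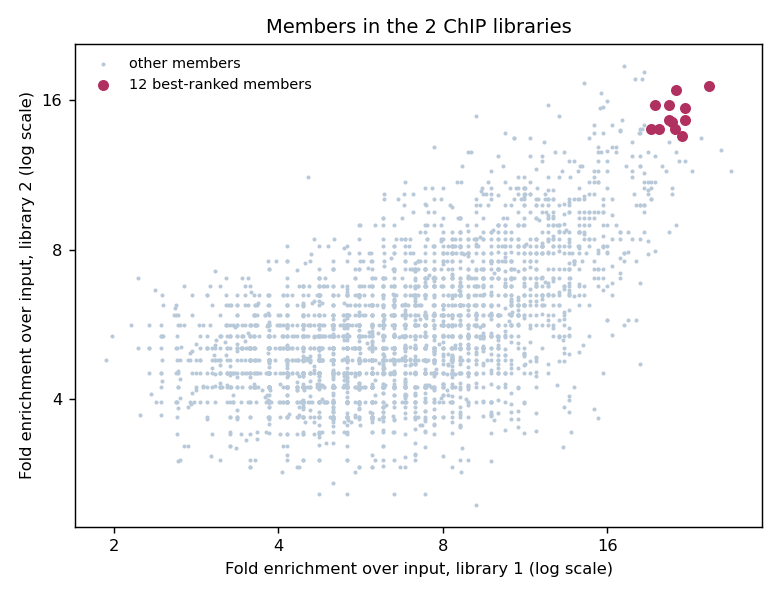
Fold enrichment over input of each of the 3442 later-intron regions in library 1 (x axis) and library 2 (y axis), both on log scales. Each point is 1 region, and the 12 best-ranked regions, in red, lie at the upper right with at least 19.3-fold in library 1 and 13.6-fold in library 2, while the middle of the cloud is at 6.52- and 5.35-fold.

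The highest of the 12 best-ranked regions was in intron 5 of Sgms1, which encodes a sphingomyelin synthase, at chr19:32221792-32225204, with 24.6-fold enrichment in library 1 and 17.1-fold in library 2. It also touched an exon, and its library 1 summit lay beyond the intron that holds its centre, as in 84 of the 3442 regions (2.44%), among them those of Arhgef3, Dock5 and Itgb2 given below. Arhgef3, which encodes a guanine nucleotide exchange factor, followed at chr14:27377446-27382217 with 21.3- and 16.8-fold. Zfp608, a zinc finger gene, had 22.2- and 15.4-fold at chr18:54969460-54973377. Both values of each of these 3 regions were above 15-fold, far over the class medians.

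Lpp, which encodes a LIM domain protein of focal adhesions, had 20.7- and 15.7-fold in libraries 1 and 2 at chr16:24516913-24518461. In Cdk6, a cell cycle kinase gene, a region of 6363 bp at chr5:3488705-3495067 had 20.7- and 14.6-fold. Prag1, which encodes a pseudokinase, had 22.2- and 14.6-fold at chr8:36120367-36125153. The Cdk6 region was 148 kb from the start of its host transcript, and the nearest coding TSS was that of Fam133b. Slco2b1, an organic anion transporter gene, had 21.0- and 14.5-fold at chr7:99679462-99682186. Cradd, an adaptor gene of caspase signalling, had 19.6- and 15.7-fold at chr10:95179622-95181774, in the second and last intron of its transcript. Patj, a cell polarity scaffold gene, had 19.9- and 14.01-fold at chr4:98507270-98510076. Dapk1, a death-associated kinase gene, had 19.3- and 14.01-fold at chr13:60669908-60675034. Slc12a3, a sodium chloride cotransporter gene, had 21.9- and 13.6-fold at chr8:94364722-94366319, where the nearest coding TSS was that of Herpud1.

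One of the 12, in intron 19 of Zc3h7a at chr16:11143911-11144345, differed from the others in shape. Its fold enrichment was 21.3 in library 1 and 13.97 in library 2, but its −log10 q was 177.6 in library 1 and 174.9 in library 2. The highest −log10 q of any other later-intron region was 101.4 in library 1 and 54.2 in library 2. In library 2 it was the highest of all consensus regions, in a region only 435 bp wide. The lists hold no reads and no list of problem regions was applied here, so what sets it apart was not tested.

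Later introns were sparse in PPARγ regions for their length. Over the 621 Mb of the genome that meets the positional rule, there were 5.54 regions per Mb (95% exact Poisson interval 5.36 to 5.73). First introns held 12.46 per Mb (12.02 to 12.92) over 238.5 Mb that meets the same distance rule, and intergenic sequence 3 to 50 kb from a TSS held 7.84 per Mb (7.61 to 8.08) over 539.6 Mb. The intervals cover counting error only, and those of the 3 classes do not overlap. For intron number, eligible sequence was counted on 1 transcript per gene, and each region was numbered on a host transcript whose intron holds it. Within the class the density was lower at each step up in intron number, and the intervals of neighbouring groups overlapped only for introns 2 and 3. It was 8.77 per Mb in intron 2 (8.23 to 9.33, 991 regions), 7.64 in intron 3 (7.06 to 8.25, 646 regions), 5.80 in introns 4 to 5 (5.36 to 6.27, 635 regions), 4.22 in introns 6 to 10 (3.89 to 4.58, 601 regions) and 3.53 beyond intron 10 (3.24 to 3.83, 569 regions). Intron number goes with the distance to the TSS of the host transcript, and the part of each was not tested. The median distance was 27.9 kb for second introns and 102.5 kb for introns beyond the tenth. Strength did not follow this order: the median fold in library 1 was 6.52 in second introns and 7.11 beyond intron 10, and in library 2 it was 5.35 in both. Over the peaks of a single library the density of later introns was 26.9 per Mb in library 1 and 8.01 per Mb in library 2.

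**Figure D2:**
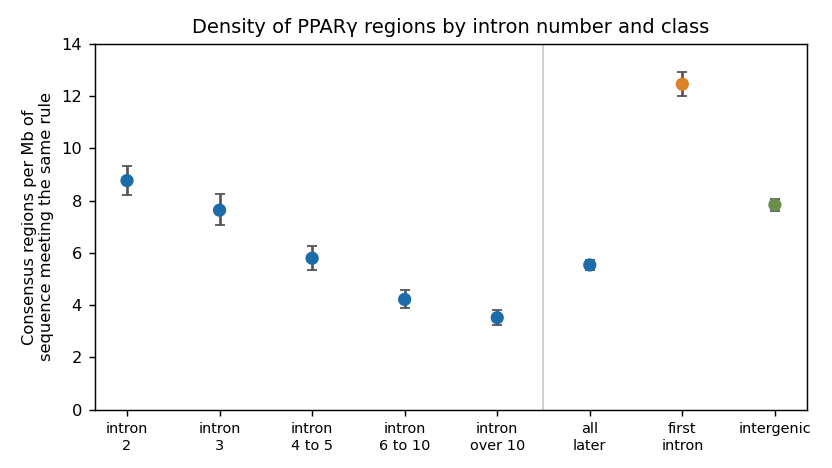
Consensus PPARγ regions per Mb of sequence meeting the same positional rule (y axis) for later introns by intron number (left of the line) and for all later introns, distal first introns and intergenic sequence 3 to 50 kb from a TSS (right). Points are densities and bars 95% exact Poisson intervals; density goes down at each step from 8.77 per Mb in second introns to 3.53 beyond intron 10, and first introns stand highest at 12.46.

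The median later-intron region lay in intron 4 of its host transcript (quartiles 2 and 8), in an intron of 12.1 kb (4.19 to 33.8 kb). Its distance to the TSS of that transcript was 43.95 kb (18.6 to 93.5 kb). The median distance to the nearest curated TSS, of any transcript or gene, was shorter, at 27.6 kb (12.97 to 55.6 kb). Within the intron the centres were spread nearly evenly, with 18.5% to 20.7% in each of 5 equal parts of its length, and 9.38% of regions were in a last intron. The nearest coding TSS belonged to a gene other than the host for 867 regions, or 25.2% (23.8% to 26.7%). Some regions reached beyond the intron that holds their centre: 439 (12.8%) touched an exon and 3 spanned a TSS. The 58 regions just inside the distance limit, 3 to 3.5 kb from a TSS, had median folds of 6.54 and 5.35 in libraries 1 and 2, and the 61 intronic regions just outside it, at 2.5 to 3 kb, had 7.41 and 5.07.

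Of the later-intron peaks of library 1, 22.9% (22.3% to 23.6%) were shared with library 2, against 28.1% (27.3% to 28.9%) of its first-intron peaks, 27.3% (26.7% to 27.99%) of its intergenic peaks and 26.9% of all its peaks. In library 2 the shares were 80.2% (79.1% to 81.3%) for later introns, 81.0% (79.8% to 82.2%) for first introns, 82.2% (81.2% to 83.1%) for intergenic peaks and 82.9% for all. Unshared later-intron peaks of library 1 had a median fold of 4.10 and shared ones 6.22.

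Sequence at the summits was compared in each region with an equally long window centred 1 kb leftward. Of 37 motifs searched, 10 were more frequent at the summits of later-intron regions (27.0% of those tested) and 1 was less frequent, by an exact two-sided McNemar test with Benjamini-Hochberg adjustment. The tests count regions, which are not replicates of animals or libraries. The myeloid factor PU.1, which opens enhancers in macrophages, had the largest ratio of summit to flank. Its motif lay within 100 bp of 8.22% of summits (7.35% to 9.19%) and in 1.16% of flanks, a ratio of 7.08 (adjusted exact p = 5.97e-47). The size of this ratio varied with the peaks used: it was 3.62 with the peaks of library 2 alone, 3.01 with those of library 1 alone and 14.1 with 1 region per gene. The C/EBP motif was at 17.5% of summits and 9.15% of flanks (ratio 1.91, adjusted exact p = 1.23e-22). AP-1, the binding site of FOS and JUN dimers, was at 11.9% and 6.28% (ratio 1.89, adjusted exact p = 8.32e-15), and RUNX at 9.76% and 5.58% (ratio 1.75, adjusted exact p = 6.24e-10). At least 2 of these 4 motifs were found at 7.21% of summits (6.39% to 8.12%) and in 1.80% of flanks (1.41% to 2.30%), and none of them at 60.2% of summits and in 79.8% of flanks.

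The motifs of nuclear receptors were more frequent at summits by smaller ratios. The half-site AGGTCA was at 16.4% of summits and 12.3% of flanks (ratio 1.34, adjusted exact p = 6.88e-06), and its extended form AAAGGTCA, which contains it, at 2.03% and 1.16% (ratio 1.75, adjusted exact p = 0.0183). A DR1, whose exact form contains the half-site, was found with up to 2 mismatches at 5.64% and 3.66% (ratio 1.54, adjusted exact p = 4.71e-04). A DR1 with up to 1 mismatch was at 33 of 3442 library 1 summits, or 0.959% (0.684% to 1.34%), and in 24 flanks (ratio 1.38), which did not pass the test (adjusted exact p = 0.465). The call depended on the library that sets the summit. Around the library 2 summits of the same regions, 41 windows held such a DR1, or 1.19%, against 0.378% of flanks (ratio 3.15, adjusted exact p = 7.20e-04), and 25 of the 41 matches lay within 50 bp of the summit. For the DR1 with up to 2 mismatches the library 2 shares were 6.04% and 2.88% (ratio 2.10, adjusted exact p = 1.73e-09). The call of the extended half-site was lost at a fold of at least 5 (adjusted exact p = 0.0833), with windows of 50 bp (adjusted exact p = 0.0759) or 200 bp (adjusted exact p = 0.105) each side, and without regions touching an exon (adjusted exact p = 0.0790). That of the DR1 with up to 2 mismatches was lost with windows of 50 bp (adjusted exact p = 0.139). The half-site call was lost among the peaks of library 1 alone (ratio 1.06, adjusted exact p = 0.101). The library 2 summit raised the ratio of the extended half-site to 2.53, and lowered that of PU.1 to 5.56 and that of RUNX to 1.45.

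Of the 41 regions with a DR1 at the library 2 summit, 20 also had one near the library 1 summit and 5 held an exact copy. The following were singled out after their values had been seen. The best ranked was in Itpkb, an inositol phosphate kinase gene, at chr1:180403336-180404790, with 18.4-fold in library 1 and 14.01-fold in library 2 and the DR1 9 bp from the summit. Abcd2, a peroxisomal transporter of fatty acids, followed at chr15:91170225-91173673 with 18.96- and 10.4-fold. Bcl6, a transcriptional repressor gene, had 16.9- and 7.19-fold at chr16:23975386-23976870, and Etv6, an ETS repressor gene, 8.59- and 9.26-fold at chr6:134240143-134240946. Abcg1 held another, at chr17:31111932-31112369, with 7.11- and 4.504-fold. The DR1 lay 81 bp from the library 2 summit in Abcd2, 66 bp in Bcl6, 11 bp in Etv6 and 24 bp in Abcg1. In Itpkb, Abcd2 and Bcl6 no such DR1 lay within 100 bp of the library 1 summit, while in Etv6 and Abcg1 it did. The 41 regions had median folds of 7.11 and 5.91, close to those of the class.

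Further motifs passed the test at library 1 summits. The E-box CACGTG, bound by basic helix-loop-helix factors, was at 3.84% of summits and 2.47% of flanks (adjusted exact p = 0.00548). The STAT motif TTCNNNGAA, of factors that act downstream of cytokine receptors such as that of GM-CSF, was at 7.96% and 5.55% (ratio 1.44, adjusted exact p = 4.33e-04), and MEF2, CTATTTATA with up to 1 mismatch, at 9.38% and 6.39% (ratio 1.47, adjusted exact p = 2.55e-05). The E-box and STAT calls were lost around the library 2 summit and among the peaks of either library alone. Around the library 2 summit the ratios were 1.08 (adjusted exact p = 0.851) and 1.24 (adjusted exact p = 0.0610). With summits at most 100 bp apart both were lost as well (adjusted exact p = 0.216 for the E-box and 0.0586 for STAT), and the E-box also with 50% reciprocal overlap (adjusted exact p = 0.175) and a window of 200 bp (adjusted exact p = 0.105). The ZEB motif CACCTG, bound by E-proteins and ZEB repressors, was less frequent at summits, at 7.44% against 14.5% of flanks (ratio 0.512, adjusted exact p = 9.81e-21), and also around the library 2 summit (ratio 0.619). Summits were poorer in GC (43.4% ± 7.19, SD over regions, against 45.0% ± 7.49 in the left flank) and less often mostly repeat-masked (6.92% against 14.4% of windows), and the part of base composition in these ratios was not tested. When summit and flank windows of which either was mostly masked were left out, 2759 regions remained, in which the ratio was 0.496 for ZEB and 6.62 for PU.1 (an alternative added after seeing the data). The motifs of the Notch and TGFβ effectors did not pass: RBPJ, the Notch effector (GTGGGAA), was at 5.11% and 4.33% (adjusted exact p = 0.300), and the SMAD palindrome GTCTAGAC at 9 summits and 7 flanks. The CTCF motif CCANNAGNNGGC, of the insulator protein, was at 56 summits and 56 flanks.

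**Figure D3:**
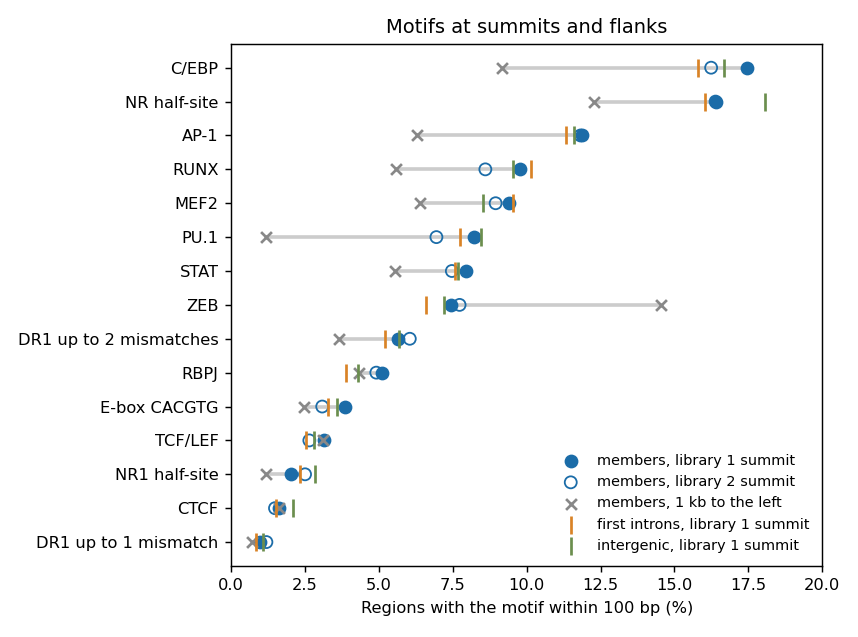
Share of regions with each motif within 100 bp (x axis, %) at the library 1 and library 2 summits of later-intron regions, 1 kb to the left of their library 1 summits, and at the library 1 summits of first-intron and intergenic regions, for the 11 motifs that passed the test and 4 that did not. The summit marks of the 3 classes lie close together, and the flank marks lie to their left for most motifs and far to the right for ZEB.

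**Figure D4:**
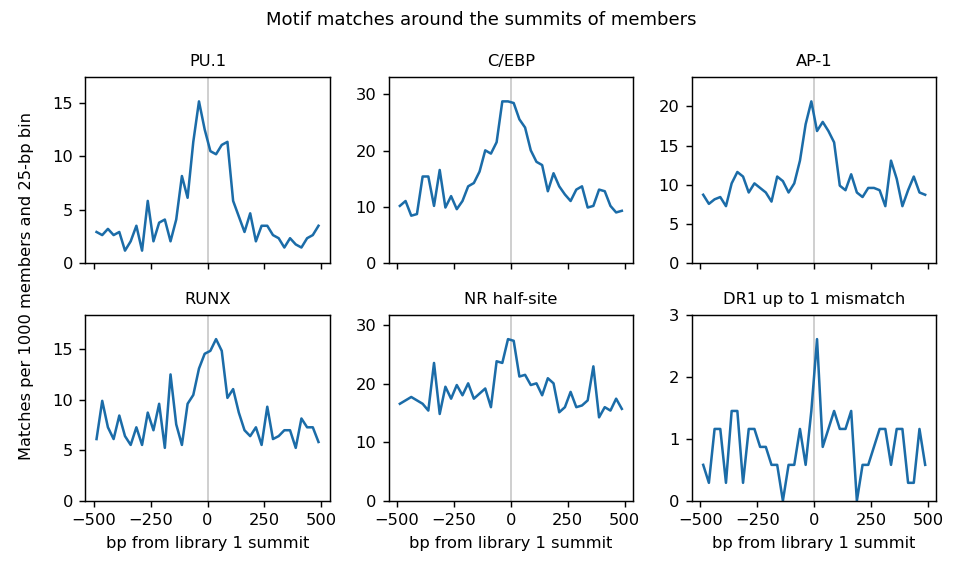
Motif matches per 1000 later-intron regions in bins of 25 bp (y axis) by distance from the library 1 summit (x axis, bp, plus strand) for 6 motifs. PU.1 reaches 15.1 matches per 1000 near the summit, C/EBP 28.8, AP-1 20.6, RUNX 15.98 and the half-site 27.6, each over a flat outer level, and the DR1 curve rests on few matches a bin.

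The sequence composition of later-intron summits was not distinguishable from that of the other distal classes by these motifs. None of the 37 motifs differed in share from first-intron summits (0.0% called) and none from intergenic summits (0.0% called), by exact two-sided Fisher tests adjusted over both comparisons together. At an unadjusted p under 0.05 there were 2 higher and 2 lower against first introns, and 0 higher and 2 lower against intergenic regions. With the peaks of library 1 alone, 1 motif was called against first introns and 6 against intergenic regions, and with those of library 2 alone none was in either comparison. PU.1 was at 8.22% of later-intron summits, 7.74% of first-intron summits, 8.44% of intergenic summits and 6.83% of all consensus summits. C/EBP was at 17.5%, 15.8%, 16.7% and 15.1% of the same classes, and the DR1 with up to 2 mismatches at 5.64%, 5.22%, 5.67% and 4.57%.

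Motif content varied with strength inside the class. In the 861 later-intron regions with the best rank, C/EBP was at 24.7% of summits (21.97% to 27.7%), against 12.4% (10.4% to 14.8%) in the 861 with the worst. PU.1 was at 9.64% (7.84% to 11.8%) against 6.50% (5.04% to 8.35%), and the DR1 with up to 2 mismatches at 7.09% (5.56% to 8.996%) against 3.95% (2.84% to 5.47%). MEF2 ran the other way, at 8.01% (6.38% to 10.02%) of the best-ranked 861 and 12.7% (10.6% to 15.1%) of the worst-ranked 861. The rank is itself a reading of the same libraries, so these shares are a description. Later-intron regions with a C/EBP match had median folds of 7.70 and 5.63 in libraries 1 and 2, and those without 6.27 and 5.35.

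The later-intron regions had 1383 host genes, which is 8.78% of the 15744 protein-coding genes that have intronic sequence meeting the rule. The regions were clustered: 66.6% (65.0% to 68.2%) had another within 10 kb, 756 hosts held 1 region, 232 held 2, 264 held 3 to 5 and 131 held more. The 47 hosts with at least 10 held 690 regions. Tcf7l2, the Wnt effector gene, had most, with 38 in 168 kb of eligible intron, 19 of them in intron 4. Their fold enrichment ranged between 1.94 and 17.2 in library 1 (median 5.30) and between 3.02 and 14.3 in library 2 (median 5.25). The best, at chr19:55817255-55820945, had 15.1- and 14.3-fold. Of the 38 regions, 9 had a C/EBP match near the summit, 4 a RUNX, 3 a DR1 with up to 2 mismatches, 2 an AP-1 and 1 a PU.1 match. A host with many regions therefore held weak and strong ones side by side.

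Akap13, an anchoring protein of protein kinase A, held 34 in 11 introns, with medians of 6.23 and 5.63 in libraries 1 and 2, and 12 of them had a C/EBP match. Runx1 held 21 in 5 introns, with medians of 6.22 and 5.35. They lay between 24.1 and 218 kb from the TSS of the host transcript used. The region at chr16:92699846-92703417 was 124.4 kb from that TSS but 4.30 kb from another TSS of Runx1. The best Runx1 region, at chr16:92782431-92784804, had 21.3- and 12.6-fold, and none of the 21 had a RUNX match near the summit. Abcg1 held 21 in 47.9 kb, the highest density of these 8 hosts, with medians of 5.63 and 5.35 and a maximum of 10.1 and 7.85. Lpp held 20, with medians of 6.41 and 6.19. Arid1b, a subunit gene of the BAF chromatin remodelling complex, held 20 with medians of 5.16 and 5.05, and for 17 of them the nearest coding TSS belonged to another gene. Frmd4a, a cell polarity gene, held 19 with medians of 6.24 and 6.19, and Dapk1 18 with medians of 7.70 and 6.19, 14 of them in intron 2. The 8 hosts differed little in their medians and widely in their best regions.

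The lists of genes below are described by the share of their eligible genes that host a later-intron region and by regions per Mb of eligible intron, beside 8.78% of genes and 5.53 per Mb over all coding genes. Genes with long introns host regions more easily, and the second measure takes account of that. The lists were written with earlier results of these data known, so their values are a description and no independent check. The AM signature, genes chosen as characteristic of AMs but not all particular to them, had hosts in 14 of 29 eligible genes (48.3%) and 57.5 regions per Mb. Macrophage transcription factors had hosts in 15 of 35 (42.9%) and 58.0 per Mb, with 38 of their 111 regions in Tcf7l2 and 21 in Runx1, and 33.8 per Mb over the other genes (calculated after seeing the data). Genes of cholesterol handling had 9 of 29 (31.0%) and 64.3 per Mb, with 21 of their 59 regions in Abcg1 and 43.7 per Mb over the other genes. Genes of phagocytosis, adhesion and the cytoskeleton had 20 of 44 (45.5%), but 13.1 per Mb. PPAR targets and lipid metabolism had 13 of 44 (29.5%) and 27.6 per Mb, and chromatin regulators 9 of 28 (32.1%) and 13.5 per Mb, with 20 of their 44 regions in Arid1b and 8.12 per Mb over the other genes.

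Nuclear receptors and coregulators had hosts in 6 of 30 eligible genes with 7.11 per Mb, receptors and mediators of niche signals 5 of 31 (16.1%) with 11.9, and lysosome and autophagy genes 5 of 27 (18.5%) with 6.66. Of the lists of other cell types, all but endothelium held fewer regions per Mb than all coding genes (5.53). Neurons had 3 of 32 (9.38%) with 0.399 per Mb, lymphocytes 1 of 24 (4.17%) with 0.508, and liver 2 of 25 with 1.43. Lung epithelium had 1 of 15 (6.67%) with 2.66, adipocytes 1 of 16 (6.25%) with 3.54, and other macrophages and monocytes 1 of 21 (4.76%) with 2.60. The lists in the last sentence each held 1 region in 0.282 to 0.385 Mb, too little to call their densities low. Outside endothelium, the share of hosts set none of the lists of other cell types apart. The Wilson interval of each share included the 8.78% of all coding genes. Endothelium was above all coding genes on both measures, with 5 of 19 (26.3%) and 7.63 per Mb. Its hosts included Vwf, the von Willebrand factor gene, with 12.4- and 7.91-fold at its best region. Another was Pecam1, an adhesion gene that leukocytes also express, with 13.3- and 6.66-fold. Of the 12 endothelial regions, 5 were in Calcrl. The other endothelial genes held 4.665 per Mb, below all coding genes (calculated after seeing the data). No test of a list was made. The counts depended on the peaks admitted, and 37 of 176 recalculated counts of hosts in a list moved by over 1.5 times. With the peaks of library 1 alone, 24.6% of all coding genes hosted a region, and hosts were 21 of 32 neuronal genes (65.6%), 18 of 27 lysosome and autophagy genes, 17 of 30 nuclear receptors and coregulators, and 25 of 35 macrophage transcription factors. At a fold of at least 5 in both libraries, 3 of 44 PPAR targets and lipid metabolism genes (6.82%) were hosts, against 5.60% of all coding genes, and with summits at most 100 bp apart 7 of 44 were, against 6.46% of all.

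**Figure D5:**
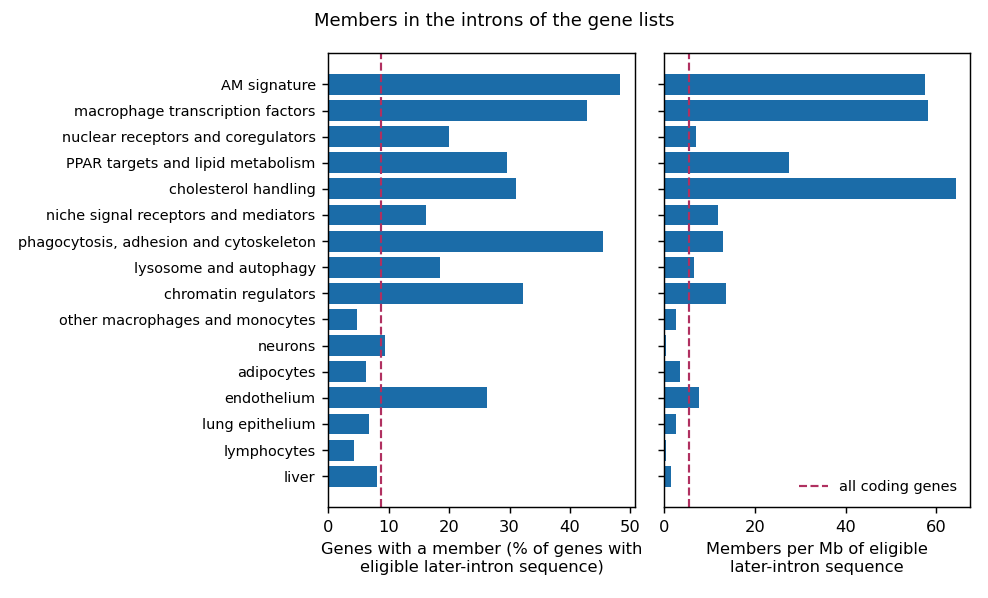
Later-intron PPARγ regions in 16 gene lists, as the share of eligible genes that host a region (left, %) and as regions per Mb of eligible later-intron sequence (right). Bars are lists and the dashed line marks all coding genes (8.78% and 5.53 per Mb); cholesterol handling reaches 64.3 per Mb, macrophage transcription factors 58.0 and the AM signature 57.5, while neurons and lymphocytes stay under 1.

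Among AM signature genes the best-ranked regions lay in Cdh1, Krt79, Atp6v0d2 and Mrc1. Cdh1, which encodes E-cadherin, had 22.2-fold in library 1 and 12.1-fold in library 2 at chr8:106610829-106612915, with a PU.1 match near the summit. Krt79, a keratin gene, had 15.7- and 15.5-fold at chr15:101935572-101937389, 3.84 kb from its TSS. Atp6v0d2, a proton pump subunit gene, had 15.1- and 11.2-fold at chr4:19893140-19896990, where PU.1, RUNX and a DR1 with up to 2 mismatches occurred together. Mrc1 had 6 regions, of which the strongest had 14.4- and 11.8-fold at chr2:14248901-14250756. Itgax, the gene of CD11c, had 3 regions, all in intron 14, with 7.998- and 6.19-fold, 8.89- and 3.96-fold, and 4.15- and 3.68-fold. Of these 5 genes, Itgax had the lowest best values in both libraries.

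Some hallmark genes of these cells had no later-intron region. To have none was the common case, since only 8.78% of the 15744 eligible coding genes hosted one, at 5.53 regions per Mb. Pparg itself had none in 84.2 kb of eligible intron, although 12 consensus regions of any class had its TSS as the nearest. Marco, a scavenger receptor gene, had none in 18.7 kb, with 8 such regions of any class. Zeb2, a repressor needed for macrophage identity, had none in 28.3 kb with 22 of any class, Mitf none in 70.0 kb with 13, Tgfbr2, a TGFβ receptor gene, none in 39.7 kb with 14, and Rxra none in 21.0 kb with 4. Csf2ra, of the GM-CSF receptor, had only 0.208 kb of eligible intron and Maf had none at all, so neither could be examined. A gene without a region here can still have regions in its first intron, at its promoter or around it.

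Among transcription factors, Runx2 had 14.8-fold in library 1 and 13.5-fold in library 2 at chr17:44662680-44664932, and Ikzf1, the Ikaros gene, 10.8- and 13.5-fold at chr11:11762882-11764581, with PU.1 and AP-1 matches. Rara, a retinoic acid receptor gene, had 11.6- and 10.9-fold at chr11:98951766-98953226. Rarb had 11.3- and 7.03-fold, and Ncoa2, a coactivator gene, 15.4- and 7.03-fold. Notch2 had 8 regions, 7 in intron 2, the best with 18.96- and 12.6-fold at chr3:98054902-98058451. Skil, a repressor of SMAD signalling, had 6.22- and 6.19-fold, Il13ra1 6.52- and 5.07-fold, and Ifngr2 5.92- and 4.24-fold. The niche signal genes named here other than Notch2 were thus near the class medians or under them in library 1.

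In genes of cholesterol and fatty acid handling the range was as wide. Abca1, the transporter that loads apolipoproteins with cholesterol, had 7 regions in introns 5 and 6, the best with 14.1-fold in library 1 and 10.1-fold in library 2 at chr4:53117663-53121232. Lrp1, an endocytic receptor gene, had 16.3- and 9.40-fold, Lipa, lysosomal acid lipase, 11.9- and 9.82-fold with a PU.1 match, and Nceh1, a cholesterol ester hydrolase gene, 11.3- and 9.26-fold. Cpt1a, the enzyme that admits long-chain fatty acids to mitochondria, had 16.9- and 13.9-fold at chr19:3378272-3379567, where the nearest coding TSS was that of Tesmin. Mgll, monoacylglycerol lipase, had 11.6- and 7.396-fold. Cd36, a fatty acid translocase and a known PPARγ target, had 7 regions in introns 3 and 4, whose medians of 3.48 and 4.52 lay below those of the class and whose maxima were 8.59 and 5.35. Plin2, a lipid droplet coat gene, had 8.89- and 4.80-fold, and Ech1, of peroxisomal and mitochondrial oxidation, 5.92- and 6.19-fold.

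Genes of adhesion, uptake and chromatin gave further strong regions. Dock5, a Rac activator gene, had 17.8- and 13.2-fold in libraries 1 and 2 at chr14:67810521-67814963, and Itgb2, the β2 integrin gene, 14.8- and 8.98-fold with a C/EBP match. Arhgap26, a GTPase-activating protein gene, had 14.5- and 8.70-fold. Kdm6b, a histone H3K27 demethylase gene, had 18.7- and 14.3-fold in intron 2 at chr11:69408414-69412541, Hdac4 22.8- and 11.5-fold, Smarca2 11.3- and 8.15-fold, and Chd7 9.10- and 6.75-fold. The lysosomal and autophagy hosts were weaker in library 2, with 6.42-fold in Tbc1d5, 4.52-fold in Map1lc3b and 4.24-fold in Atg5. Among hosts of the lists of other cell types, Lrp1b had 7.41- and 5.91-fold, Cntnap2 6.70- and 8.42-fold, Robo2 5.24- and 5.35-fold, Prkcq 5.33- and 4.52-fold, Etv5 5.04- and 5.41-fold, Retn 4.74- and 6.49-fold and Treml4 4.82- and 6.75-fold. The liver list gave Dpyd with 10.7- and 5.99-fold and Slc10a1 with 6.81- and 4.80-fold, and the endothelial list also gave Calcrl with 14.5- and 6.75-fold and St6galnac3 with 5.33- and 5.07-fold.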

How the data were processed

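Peak lists of 2 PPARγ HT-ChIPmentation libraries from mouse AMs were analysed. The submitters' notes and the study's methods name bcl2fastq 2.20.0.422, cutadapt, Bowtie2, SAMtools and MACS3 with mm10; the authors called peaks per library against input at a q of 0.05. The deposited lists give, per peak, the authors' fold enrichment (a linear ratio), −log10 p-value, −log10 q-value, a score derived from the q-value, and the summit. They hold no counts and give no depth, and the sequencing quality data that the paper supplies separately were not used here. Shallow libraries lose weak peaks, and sparse input can raise the ratio.

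Peaks were merged and placed with curated RefSeq transcripts of GRCm38.p6 in Python 3.11.15 (NumPy 2.4.6, pandas 2.3.3, SciPy 1.17.1, pysam 0.24.0). Eligible sequence is every base that meets the rule. Motifs were sought on either strand in the 201 bp around the strongest peak's summit. The steps were tested on simulated data. The regions, the 16 lists (486 entries, all matched) and the motifs were chosen with earlier results of these data known. Genes named are the hosts of the 12 best-ranked regions, the 8 hosts with most regions, up to 4 best-ranked hosts per list, and 17 genes listed whatever their values. Some genes that the rule selects are left out of the text. Alternatives changed peak thresholds, overlap, annotation, distance, windows and library. A further 3 were added after seeing the data.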

Additional observations from a re-analysis of the deposited data

How the results depend on the processing

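No paired analysis was possible because the replicate numbers that ChIP and input share name no contrast here and the input libraries were not analysed. Of 102 recalculated main values, 81 held within their limits. The count of later-intron regions, 3442 in the main analysis, was 1694 at a fold of at least 5, 1716 with 50% reciprocal overlap and 1924 with summits at most 100 bp apart. Their density, 5.54 per Mb, was 4.91 at a q of at most 0.001, 2.73, 2.76 and 3.10 under those 3 settings in the same order, 5.17 with predicted transcripts included and 4.83 without regions touching an exon, an alternative added later. Host genes, 1383 in the main analysis, were 881 at a fold of at least 5 and 917 with 50% reciprocal overlap. The median folds at a fold of at least 5 were 8.59 in library 1 and 6.47 in library 2. With a single library's peaks (without replicate 1 or without replicate 2), there were 4974 to 16685 regions, 8.01 to 26.9 per Mb, and 1629 to 3870 host genes, the median fold in library 1 alone was 4.15 and that in library 2 alone 5.07, and motifs called were 0 to 1 against first introns and 0 to 6 against intergenic regions. A window of 200 bp gave 1 motif against intergenic regions. The counts change with the number of peaks or the sequence admitted by construction, and the cause was not tested for the motif calls. Of 255 recalculated motif ratios, 19 lost and 3 gained the call. PU.1, C/EBP, AP-1, RUNX and ZEB kept theirs under all 17 alternatives. MEF2 lost it with 1 region per gene (ratio 1.29, adjusted exact p = 0.180), at a fold of at least 5 (ratio 1.35, adjusted exact p = 0.0680) and with a window of 200 bp (ratio 1.14, adjusted exact p = 0.107). CTCF gained it in library 1 alone (ratio 1.996, adjusted exact p = 2.89e-21). The uncalled SMAD ratio of 1.29 turned to 0.941 with a window of 200 bp and 0.400 with 1 region per gene. Peak lists without depth limit all of these values, and weak regions that only 1 library detected are not in the consensus.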
